A study of Mus musculus with 2 samples.

Results

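Transcripts of 10 genes that encode carrier proteins of blood plasma were compared between 1 control and 1 Hnrnpk knockout mouse liver library. The genes were taken by name, with no threshold on a measured value: Alb, Ttr, Trf, Ahsg, Fetub, Hpx, Rbp4, Gc, Ambp and Vtn. All 10 were found, each as 1 of the 21936 genes of the deposited table. The control library came from the liver of hnRNPK flox/flox mice, in which the target gene is flanked by recombination sites and left intact. The knockout library came from the liver of hnRNPK flox/flox Alb-Cre mice, which also carry Cre recombinase under an albumin promoter, so deletion is directed mainly to hepatocytes, and liver cells that do not use that promoter keep the gene. The labels used here state no age, sex, strain or mouse number for either library, nor the form of the Alb-Cre allele. The series title instead names the libraries wild type and hnRNPK-MKO. With 1 library per genotype no test was possible, and every interval below covers counting error only. The reads carry no molecular identifiers in the labels, so copies of 1 molecule may count more than once.

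Hepatocytes make and secrete most of the protein dissolved in plasma, and a small number of very abundant transcripts supplies it. Albumin carries fatty acids, bilirubin and drugs and sets much of the osmotic pressure of blood. Several of the other proteins bind particular cargoes such as vitamin D, retinol, thyroxine, iron or haem. These cargoes are insoluble, reactive or easily lost through the kidney when free. Transcription of these genes depends on liver-enriched factors, among them HNF4, C/EBP and FOXA proteins. Hnrnpk encodes heterogeneous nuclear ribonucleoprotein K, which binds C-rich RNA and DNA.

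The control library held 12428975 counted reads and the knockout library 12176239. Hnrnpk had 2559 control and 1411 knockout reads, and its level in the knockout library was 0.567 of the control level (95% interval 0.531 to 0.605). All 10 listed hepatocyte markers were present, at control levels of 198 to 5256 FPKM and knockout levels of 171 to 7206 FPKM, where FPKM is the read count per length of gene and per total of counted reads. Their summed reads were 1.07 times as high in the knockout (1.07 to 1.08), but single markers went both ways. Cps1 (0.822 times), Hnf4a, Tat, Ass1, Cyp2e1 and Apob were below 1, and G6pc, Pck1, Apoa1 and Cyp3a11 (1.45 times) above. Markers of other cells also differed: 7 of 8 bile duct markers had reads in each library and summed to 15.6 control and 68.4 knockout FPKM. Spp1 alone made up 9.96 and 53.7 FPKM of these sums, while Krt19 had 0.173 and 3.10 and Epcam 0.367 and 3.33. The 8 stellate and fibroblast markers summed to 35.8 and 49.96 FPKM, the 10 macrophage markers to 184 and 168, and the 8 sinusoidal endothelial markers to 82.8 and 74.0. The 4 neutrophil markers summed to 0.617 and 0.472 FPKM, with Ly6g, Retnlg and S100a8 at 0 reads in both libraries. The part of these differences in the results below was not tested. In bulk tissue, fewer cells of a type and less RNA per cell cannot be told apart.

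The 10 carrier transcripts took 11.0% of control reads (exact 95% interval 10.98 to 11.02) and 11.4% of knockout reads (11.35 to 11.38). Alb was the highest gene of both libraries, with 32028 control and 31832 knockout FPKM. Its level was 9.18 times that of the next carrier, Ttr, in the control and 8.05 times in the knockout. Ttr (3490 and 3953 FPKM), Gc (3333 and 3624) and Trf (3247 and 3288) formed a close second tier. Ahsg (2013 and 2630), Rbp4 (1905 and 2183) and Hpx (1691 and 2108) came next. The levels thus fell into a single dominant transcript and a graded series below it. Ambp had 1273 and 1306 FPKM and Vtn 1085 and 1291. Fetub was the lowest carrier, at 223 and 251 FPKM, and ranked 199th and 188th among all genes, whereas the other 9 lay within the first 46 of each library. The order of the 10 was the same in both libraries. Per length, all neighbours in this order were separated beyond counting error except Ambp and Vtn in the knockout, where the level ratio was 1.01 (0.994 to 1.03), against 1.17 (1.15 to 1.20) in the control.

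**Figure D1:**
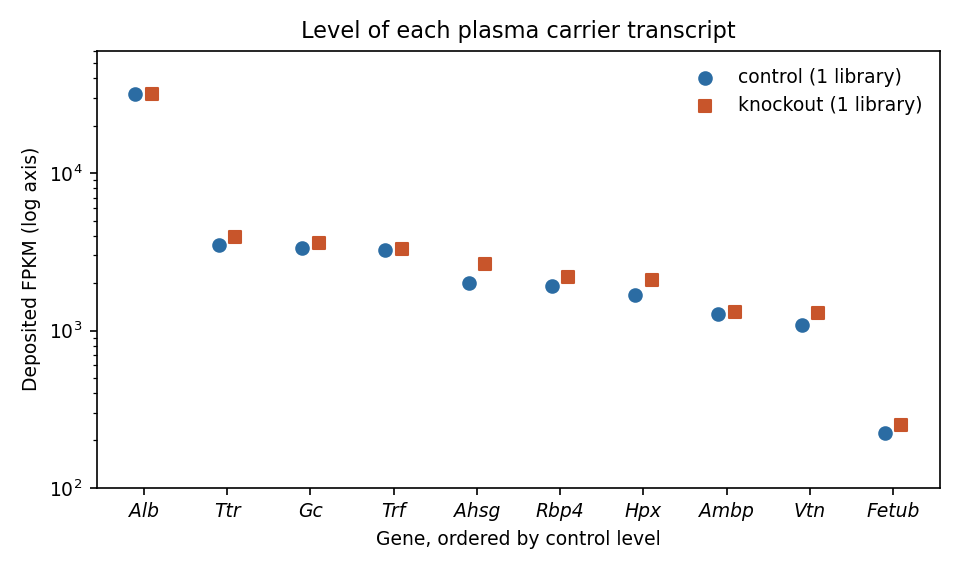
Deposited FPKM (log axis) of the 10 carrier genes, ordered by control level, with 1 point for the control and 1 for the knockout library and no replicates. Alb stands about 1 order above the rest, Fetub lies at 223 and 251 FPKM, and the order of genes is the same in both libraries.

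None of the 10 carrier transcripts reached a 2-fold difference in either direction. All were at or slightly above their control level in the knockout library, from 1.001 times for Alb to 1.32 times for Ahsg. The median log2 ratio of knockout over control was 0.19 (0.15 to 0.22), which was computed from scaled counts with 0.5 added. Among 9563 evaluated genes, meaning those with at least 1 FPKM and 20 reads in the higher library, the median was -0.03. In that background 2.48% of genes were at least 2-fold higher and 1.11% at least 2-fold lower in the knockout. At a smaller threshold, 2 of the 10 carriers (Ahsg and Hpx) were at least 25% higher and 0 were at least 20% lower, beside 14.9% and 17.8% of evaluated genes. Hpx lay at the threshold, and DESeq2 size factors or plain library totals put it just below. The direction also depended on scaling for Alb, whose log2 ratio was 0.00 and became -0.01 with library totals alone and -0.02 with totals that leave out mitochondrial genes. The other 9 stayed above 0 under each of the 5 scalings of counts, while TPM (FPKM rescaled to a fixed sum per library) put 7 of 10 above 0.

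**Figure D2:**
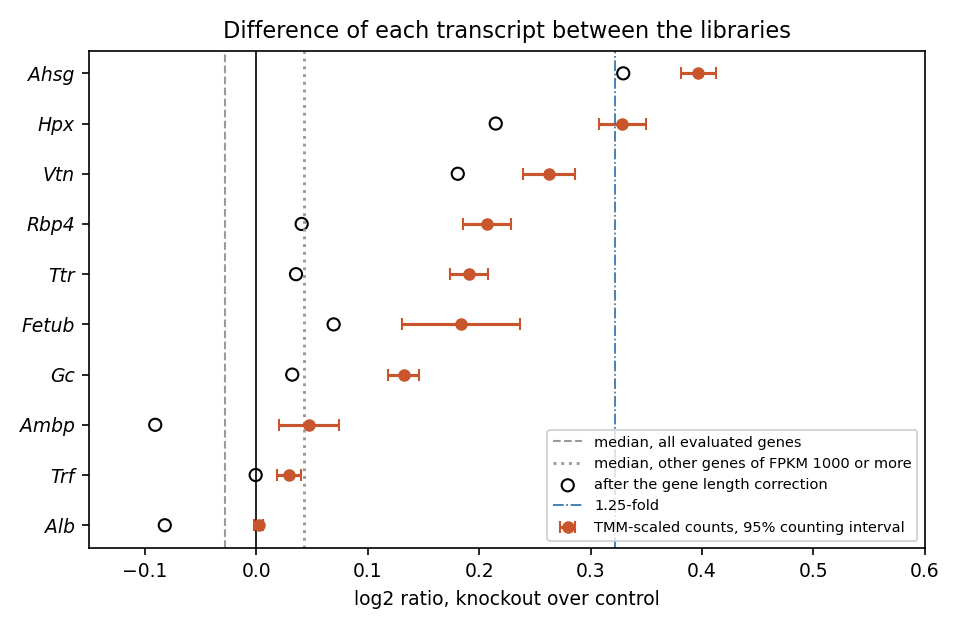
log2 ratio of knockout over control for each carrier gene, with filled points for scaled counts, bars for the 95% counting interval, and open circles for the same ratio after subtracting the trend with gene length. Filled points run from 0.00 for Alb to 0.40 for Ahsg, open circles from -0.09 for Ambp to 0.33, and the vertical lines mark 0, 25% higher and the medians of all evaluated genes (-0.03) and of other genes of at least 1000 FPKM (0.04).

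Other transcripts of similar abundance lay on both sides of their control level. The 48 other genes of at least 1000 FPKM in the higher library had a median log2 ratio of 0.04, with 25 above 0. Of these 48 genes, 1 was at least 2-fold higher and 0 at least 2-fold lower. At the smaller threshold, 12 were at least 25% higher and 4 at least 20% lower. The middle of their distribution, between its quartiles, ran from -0.12 to 0.32, against 0.07 to 0.25 for the carriers. The carriers here include Fetub, which was below 1000 FPKM (223 and 251). Summed over the 10 carriers, reads were 1.041 times as high in the knockout (1.038 to 1.043), beside 1.040 for the sum of those 48 genes. Without Alb, which made up most of the sum, the remaining 9 carriers took 3.50% of control and 3.91% of knockout reads and were 1.13 times as high (1.12 to 1.13). The genes of at least 1000 FPKM in both libraries with a log2 ratio nearest to the carriers' median, over the 2 libraries, were B2m (0.19), which encodes the light chain of class I histocompatibility molecules, the apolipoprotein gene Apoa2 (0.19) and the fibrinogen chain gene Fga (0.17).

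**Figure D3:**
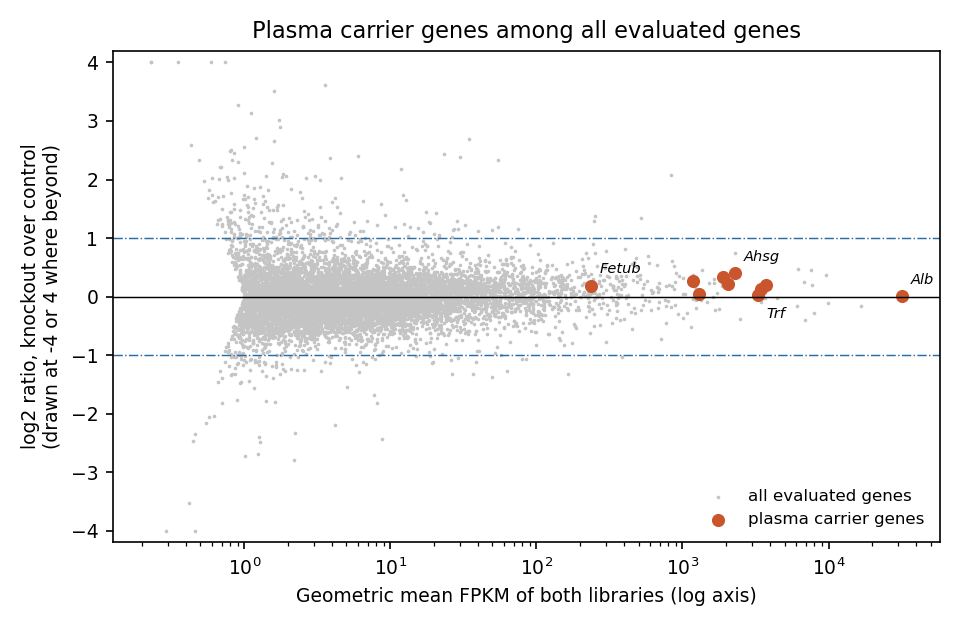
log2 ratio of knockout over control against the geometric mean FPKM of both libraries (log axis) for 9563 evaluated genes in grey and the 10 carrier genes in colour, with dashed lines at 2-fold. The carriers sit at the abundant end, between 0.00 and 0.40, and none reaches 2-fold.

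The ratio between the libraries moved with gene length. When evaluated genes were divided by length into 4 equal groups, the shortest (348 to 2725 bases) had a median log2 ratio of 0.10, and the longest (6619 to 41619 bases) a median of -0.14. The carriers are short, from 1186 bases for Ttr to 3320 bases for Trf. The 3011 other evaluated genes within that range of lengths had a median of 0.08, and 59.9% of them were above 0, against 46.0% of all evaluated genes. The 28 of them with at least 1000 FPKM had a median of 0.11. These groups of like length were chosen after the values were seen. After a running median over genes ordered by length was subtracted, with 4.19% of evaluated genes in each window, the carriers' median was 0.04 and 7 of 10 were above 0. Ahsg (0.33), Hpx (0.21) and Vtn (0.18) then remained the highest, while Alb was at -0.08 and Ambp at -0.09. The cause of the trend with length was not tested.

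**Figure D4:**
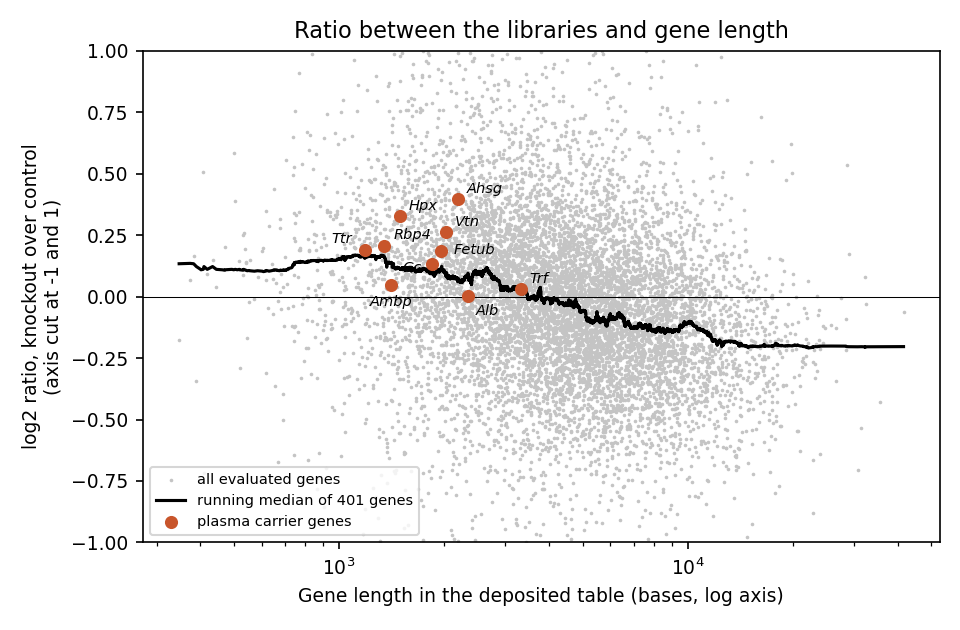
log2 ratio of knockout over control against gene length (log axis) for evaluated genes in grey, with the running median as a black line and the 10 carrier genes in colour; the vertical axis is cut at -1 and 1. The running median falls with length, and Ahsg, Hpx and Vtn lie farthest above it.

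Alb, the albumin gene (ENSMUSG00000029368), lies on mm10 chromosome 5 from 90460897 to 90476602 on the plus strand and has 15 exons in its principal transcript. It had 932293 control and 907740 knockout reads, 7.50% and 7.46% of the libraries. The ratio after scaling was 1.001 (0.9986 to 1.004). With totals that leave out mitochondrial genes, with TPM and after the length correction, Trf lay nearer to its control level than Alb did. Gc (ENSMUSG00000035540) encodes vitamin D binding protein, which also binds actin released from damaged cells. It is a relative of Alb on the same chromosome, from 89417522 to 89457898 on the minus strand, with 13 exons. It had 76421 and 81424 reads and was at 1.10 times the control level (1.09 to 1.11). Within a library, where no scaling between libraries enters, the Alb level was 9.61 times that of Gc in the control and 8.78 times in the knockout. Of the other albumin family genes beside Alb, Afm, which encodes the vitamin E binding protein afamin, had 2495 and 2852 reads (1.18 times, 1.11 to 1.24). Afp, the fetal alpha-fetoprotein gene 14134 bases after Alb, had 20 and 86 reads (4.42 times, 2.69 to 7.60). The gene before Alb, Ankrd17, had 1339 and 968 reads (0.744 times). Afp was at 0.478 control and 2.10 knockout FPKM, so it passed the 1 FPKM minimum only in the knockout library. Both neighbours differed more than Alb itself did, Afp from a level near that minimum.

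Promoter windows from RefSeq (build GRCm38.p6, 250 bases before to 50 after the start of transcription) were present for 8 of the 10 genes, in 10 windows, and those of Trf and Ttr are not shown. Alb and Gc are printed as an abundant pair of 1 family, Hpx as a carrier near the 25% threshold, and the inner Rbp4 window for its C-rich stretches. They lie at chr5:90460620-90460919 (plus strand), chr5:89457849-89458148 (minus), chr7:105600067-105600366 (minus) and chr19:38124762-38125061 (minus). Letters run 5′ to 3′ on the gene's strand, and capitals mark matches, on either strand, to the CCAAT box, the TATA box TATAAA, the D-box TTATGTAA of PAR bZIP and C/EBP factors, the NF1 half-site TTGGCA, or CCCTCCC, part of the CT element that hnRNP K binds in the human MYC promoter.
Alb: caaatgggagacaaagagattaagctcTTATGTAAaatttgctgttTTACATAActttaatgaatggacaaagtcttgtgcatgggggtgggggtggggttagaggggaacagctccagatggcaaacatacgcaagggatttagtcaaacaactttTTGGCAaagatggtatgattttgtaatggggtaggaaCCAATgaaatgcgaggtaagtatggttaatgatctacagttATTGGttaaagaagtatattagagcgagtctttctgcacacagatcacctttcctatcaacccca
Gc: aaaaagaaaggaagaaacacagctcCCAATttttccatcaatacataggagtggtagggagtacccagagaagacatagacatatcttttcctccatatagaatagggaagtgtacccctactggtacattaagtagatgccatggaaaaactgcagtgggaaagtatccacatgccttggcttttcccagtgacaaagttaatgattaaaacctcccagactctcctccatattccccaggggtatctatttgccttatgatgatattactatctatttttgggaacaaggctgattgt
Hpx: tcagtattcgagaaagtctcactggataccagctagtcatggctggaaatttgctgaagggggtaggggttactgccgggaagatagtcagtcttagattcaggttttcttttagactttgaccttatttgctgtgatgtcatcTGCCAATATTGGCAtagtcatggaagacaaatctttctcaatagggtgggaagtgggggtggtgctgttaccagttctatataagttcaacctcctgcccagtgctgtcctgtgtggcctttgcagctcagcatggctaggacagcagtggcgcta
Rbp4: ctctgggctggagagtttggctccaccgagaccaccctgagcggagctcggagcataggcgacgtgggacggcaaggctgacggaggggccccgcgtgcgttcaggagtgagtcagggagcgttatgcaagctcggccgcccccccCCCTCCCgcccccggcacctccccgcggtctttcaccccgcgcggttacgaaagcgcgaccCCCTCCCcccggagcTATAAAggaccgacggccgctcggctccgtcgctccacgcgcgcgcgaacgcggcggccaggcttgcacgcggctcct
The D-box was found in 1 of the 10 carrier windows, that of Alb, which holds it on each strand, and in 0.938% of all 32851 windows of this length. The CCAAT box was found in 7 of 10 windows against 37.4% of all, the TATA box in 3 against 13.6%, and the NF1 half-site in 4 against 14.1%. In Hpx, CCAAT and NF1 matches on opposite strands overlap. The CT element was found in 1 of 10 windows, the inner one of Rbp4, with 2 matches, and in 22.0% of all windows. These are matches of letters and not sites of binding. The log2 ratios of the genes shown were 0.00 for Alb, 0.13 for Gc, 0.33 for Hpx and 0.21 for Rbp4.

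Of the vitamin D handling genes other than Gc, 3 of 7 were expressed highly enough to be evaluated, and 0 of these 3 passed 2-fold. Cyp2r1, the main liver vitamin D 25-hydroxylase, had 102 and 142 reads (1.43 times, 1.10 to 1.87), and Cyp27a1, a sterol 27-hydroxylase, had 9451 and 11182 reads (1.22 times). Dab2, an endocytic adaptor, had 239 and 196 (0.843 times). In the list of albumin recycling and uptake, 0 of 4 evaluated genes passed 2-fold. Fcgrt, the heavy chain of the neonatal Fc receptor that returns albumin to the circulation, was at 0.832 times the control (0.778 to 0.889), and its light chain gene B2m at 1.14 times (1.12 to 1.16). Stab1 and Stab2, scavenger receptors of sinusoidal endothelium, were at 0.704 and 0.849 times. Cubn and Lrp2, kidney receptors for filtered albumin and vitamin D binding protein, had 2 and 2, and 3 and 14 reads.

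Ttr and Rbp4 encode partners in plasma: transthyretin carries thyroxine and holds the retinol-binding protein RBP4 in a complex too large for the kidney to filter. Ttr (ENSMUSG00000061808; mm10 chromosome 18, 20665280 to 20674321, plus strand, 4 exons) had 51444 control and 57089 knockout reads, 1.14 times (1.13 to 1.16). Rbp4 (ENSMUSG00000024990; chromosome 19, 38116629 to 38125281, minus strand, 6 exons) had 31801 and 35690 reads, 1.15 times (1.14 to 1.17). After the length correction the log2 ratios were 0.04 for Ttr and 0.04 for Rbp4, and after length and GC correction 0.07 and 0. The ratio of the Ttr to the Rbp4 level was 1.83 in the control and 1.81 in the knockout, and the quotient of these ratios was 0.989 with an approximate 95% counting interval of 0.970 to 1.01. This ratio within a library does not depend on the library totals.

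The genes around the retinol carriers were less uniform. In the list of 8 other genes grouped under retinol transport, 5 were evaluated. Of these, 4 were above 0 and 1 below, beside 46.0% of all evaluated genes above 0. Their median log2 ratio was 0.32 (0.01 to 0.57). Rarres2, counted in this list although it encodes the secreted protein chemerin, had 1632 and 2207 reads (1.39 times). Lrat, the retinol esterifying enzyme of stellate cells, had 125 and 152 (1.251 times, 0.981 to 1.60). It is itself 1 of the 8 markers in the higher stellate and fibroblast sum given above. Stra6l, a liver receptor for RBP4, had 1725 and 1808 reads (1.08 times), and Dgat1, an acyltransferase, 270 and 200 (0.762 times). Stra6, Rbp2 and Rbp7 had 0 reads in both libraries.

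The other hormone carriers differed from Ttr. Serpina7, the gene of thyroxine-binding globulin, had 362 control and 177 knockout reads, or 0.503 of the control level (0.418 to 0.604), at the edge of the 2-fold threshold, which it passed with plain library totals. Serpina6, the gene of corticosteroid-binding globulin, had 1843 and 1283 reads (0.716 times, 0.666 to 0.769). Shbg, which encodes sex hormone-binding globulin, had 1 and 0 reads. The ratio of the Ttr to the Serpina7 level was 293 in the control and 666 in the knockout, a quotient of 2.27 (1.90 to 2.72). The thyroxine carriers of plasma, albumin included, thus had transcripts at 1.001 (Alb), 1.14 (Ttr) and 0.503 (Serpina7) times their control levels.

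The iron and haem carriers were Trf and Hpx. Trf (ENSMUSG00000032554; mm10 chromosome 9, 103204001 to 103230444, minus strand, 17 exons) encodes transferrin, which brings ferric iron to cells. It was the most read carrier after Alb, with 133970 and 132899 reads, and was at 1.02 times the control (1.01 to 1.03). The log2 ratio of Trf fell below 0 with TPM (-0.03) and after the length correction (-0.0007). GENCODE annotates another gene on the same strand, Gm20425, across 26307 bases of Trf, and reads of both could not be separated here. Hpx (ENSMUSG00000030895; chromosome 7, 105591613 to 105600137, minus strand, 10 exons) encodes hemopexin, which binds free haem and delivers it to hepatocytes. It had 31506 and 38468 reads and was at 1.26 times (1.24 to 1.27). These 2 carriers separated: the Trf level was 1.92 times that of Hpx in the control and 1.56 times in the knockout. Hp, the gene of the haemoglobin scavenger haptoglobin, had 28047 and 32100 reads (1.18 times, 1.16 to 1.20), so both haem scavengers were above Trf in their ratios. The gene after Trf, 1300017J02Rik, has the same KEGG orthology entry as Trf in the deposited table and was chosen after its values were seen. It had 7226 and 5629 reads, or 0.801 of the control (0.774 to 0.830), on the other side of 1 from Trf with scaled counts. The 5 erythroid markers summed to 223 control and 357 knockout FPKM, and their part in these results was not tested.

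Of 12 other iron and haem genes, 9 were evaluated and 0 passed 2-fold, with a median log2 ratio of -0.24 (-0.33 to -0.18), 3 of 9 above 0 and 6 below, beside 46.0% of all evaluated genes above 0. After the length correction the median was -0.15. Hamp, the gene of the iron hormone hepcidin, had 4660 and 2756 reads (0.608 times, 0.580 to 0.638). Cd163, the macrophage receptor for haptoglobin and haemoglobin, had 718 and 370 reads (0.530 times, 0.466 to 0.602). The macrophage marker sum given above was also lower, but its single markers went both ways, from 0.445 times for Timd4 to 1.91 for Marco. Hmox1, which breaks down haem, was at 0.680 times and Lrp1, the receptor for the hemopexin and haem complex, at 0.784 times (13961 and 10645 reads). Tfr2, a hepatocyte sensor of iron-loaded transferrin, was at 0.845 times, and the iron exporter gene Slc40a1 at 0.858 times. Tfrc, the transferrin receptor of most cells, was in the opposite direction at 1.33 times (1.18 to 1.499), and Cp, the ferroxidase ceruloplasmin, was at 1.12 times.

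Ahsg and Fetub encode the fetuins, cystatin-domain glycoproteins: fetuin-A keeps calcium phosphate in solution, and fetuin-B inhibits an egg protease and is needed for fertilisation in mice. Ahsg (ENSMUSG00000022868; mm10 chromosome 16, 22891277 to 22899449, plus strand, 7 exons) had 54957 control and 70350 knockout reads, 1.32 times (1.30 to 1.33), the largest ratio of the 10. Among evaluated genes, 88.8% had a lower log2 ratio. GENCODE places the antisense gene Gm30505 over 3110 bases of Ahsg, and without a known strand setting its reads could not be told from those of Ahsg. Fetub (ENSMUSG00000022871; 22918334 to 22939778, plus strand, 9 exons) had 5427 and 5992 reads, 1.14 times (1.09 to 1.18). Although the genes are neighbours 18884 bases apart, the Ahsg to Fetub level ratio was 9.04 in the control and 10.5 in the knockout (quotient 1.16, 1.12 to 1.20). The rest of this cystatin-domain cluster follows in a row. Hrg, the gene of histidine-rich glycoprotein, was at 1.16 times (1.13 to 1.19), and the kininogen genes Kng2 and Kng1, which are close copies with uncertain shared reads, were at 1.10 and 1.04 times. All 5 genes of the cluster were above 1 with scaled counts, although Kng1 was below it with TPM. Outside the carriers, 0 of the 3 were at least 25% higher. Among 6 receptors and proteases linked to fetuins, 3 were evaluated. Insr, the insulin receptor that fetuin-A can inhibit, had 1930 and 1149 reads (0.612 times, 0.569 to 0.659), while the asialoglycoprotein receptor genes Asgr1 and Asgr2 were at 1.03 and 0.935 times, and Asgr1 turned below 1 with TPM and after the length correction.

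Ambp encodes a precursor that is cut into alpha-1-microglobulin, a lipocalin that binds haem and radicals, and bikunin, a protease inhibitor. Ambp (ENSMUSG00000028356; mm10 chromosome 4, 63143275 to 63154799, minus strand, 10 exons) had 22302 control and 22399 knockout reads and was at 1.03 times (1.01 to 1.05). The log2 ratio of Ambp fell below 0 with TPM (-0.009) and after the length correction (-0.09). Bikunin is joined to heavy chains encoded by the Itih genes, whose transcripts did not all stay near the ratio of Ambp. Itih3 had 10554 and 5901 reads (0.575 times, 0.557 to 0.594) and Itih1 7501 and 4456 (0.611 times, 0.589 to 0.634), while Itih2 had 11808 and 12447 (1.08 times, 1.06 to 1.11). Itih4, a related acute phase protein that lacks bikunin, was at 0.810 times, and Itih5 was past 2-fold at 2.56 times (205 and 511 reads, 2.18 to 3.03). Among the 5 evaluated genes 1 thus passed 2-fold upward and 0 downward, with a median log2 ratio of -0.30 (-0.34 to -0.27). The Ambp level was 5.46 times that of Itih3 in the control and 9.80 times in the knockout (quotient 1.80, 1.73 to 1.86). The Ambp to Itih2 ratio was 4.44 and 4.23 (quotient 0.953, 0.923 to 0.983). The ratio of Ambp to heavy chain transcripts thus differed by chain, and the proteins were not measured.

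Ambp and Rbp4 belong to the lipocalins, small barrel-shaped carriers of greasy ligands. In the list of 7 other lipocalin genes, 5 were evaluated, and 3 of them passed 2-fold upward and 0 downward, beside 2.48% and 1.11% of all evaluated genes. The median log2 ratio was 1.10 (0.77 to 1.45). With FPKM or after the length correction 2 passed, and the median was 0.92 and 0.96. Orm3 (87 and 193 reads, 2.28 times), Lcn2 (83 and 183 reads, 2.27 times) and Orm2 (110 and 230 reads, 2.15 times) are acute phase genes of low level here. The abundant family member Orm1 had 7717 and 8555 reads (1.14 times, 1.11 to 1.18); the Orm genes are similar copies, so their shared reads are uncertain. Apom, a carrier of sphingosine-1-phosphate on lipoproteins, had 2115 and 3462 reads (1.68 times, 1.59 to 1.78). The abundant lipocalins Rbp4, Ambp and Orm1 had ratios from 1.03 to 1.15, below those of the other 4.

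Vtn (ENSMUSG00000017344; mm10 chromosome 11, 78499091 to 78502324, plus strand, 8 exons) encodes vitronectin, a plasma and matrix protein that binds integrins. It had 27367 control and 31919 knockout reads, 1.20 times (1.18 to 1.22). Of 9 partner genes, 5 were evaluated and 0 passed 2-fold, with a median log2 ratio of 0.10 (0.02 to 0.16). The integrin subunits that bind vitronectin went both ways, with Itgb3 at 0.546 times (98 and 52 reads, 0.382 to 0.772), Itgav at 0.691 times (369 and 248 reads) and Itgb5 at 1.41 times (486 and 667 reads, 1.254 to 1.59). Itgb3 was at 1.34 control and 0.724 knockout FPKM, so it passed the 1 FPKM minimum only in the control library. Itgb1 was at 1.07 times and Plg, the plasminogen gene, at 1.10 times.

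Among 15 transcription factors known to act at such promoters, all were evaluated and 0 passed 2-fold. Of these, 5 were above 0 and 10 below, beside 46.0% of all evaluated genes above 0. Their median log2 ratio was -0.23 (-0.29 to -0.15), and it was -0.12 after the length correction. Foxa2 had 783 and 489 reads (0.642 times, 0.573 to 0.720) and Foxa3 1286 and 911 (0.729 times). Hnf4a was at 0.848 times (0.826 to 0.871) and Cebpa at 0.850 times (0.817 to 0.885). Dbp, a PAR bZIP factor that acts on the albumin D-box, was at 1.41 times (760 and 1039 reads). The other PAR bZIP genes of the list went the other way. Hlf was at 0.757 times (0.686 to 0.835) and Tef at 0.858 times (0.816 to 0.902). Foxa1 was at 1.001 times, and the other scalings of library totals put it below 1, so that 11 of 15 factors were below.

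The list of other abundant secreted proteins spread over both directions, with 19 genes above 0 and 7 below. Of 26 evaluated genes, 0 passed 2-fold, 6 were at least 25% higher and 1 at least 20% lower. Among all evaluated genes, 14.9% and 17.8% passed these smaller thresholds, and 46.0% were above 0. The list had a median log2 ratio of 0.19 (0.17 to 0.21). After the length correction the median was 0.13, against 0.04 for the carriers, and the difference between the lists was not tested. Apoa1, the main protein of high-density lipoprotein, had 80737 and 108450 reads (1.38 times), and the elastase inhibitor gene Serpina1a 16579 and 23230 (1.44 times, 1.41 to 1.47). Its close copy Serpina1d was at 0.998 times (0.981 to 1.01), and reads shared between such copies make both values uncertain. C3, the central complement component, was at 0.997 and Apob, the scaffold of low-density lipoprotein, at 0.988 times, both near the ratio of Alb; each turned above 1 after the length correction. Saa4, a constitutive serum amyloid protein, was the lowest at 0.584 times (10318 and 5856 reads). The nearest genes in the genome had no common direction: the carriers had 20 neighbours, of which 11 were evaluated, 6 above 0 and 5 below, counting Ahsg and Fetub as neighbours of each other. No other gene of the table overlapped a carrier by its coordinates.

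**Figure D5:**
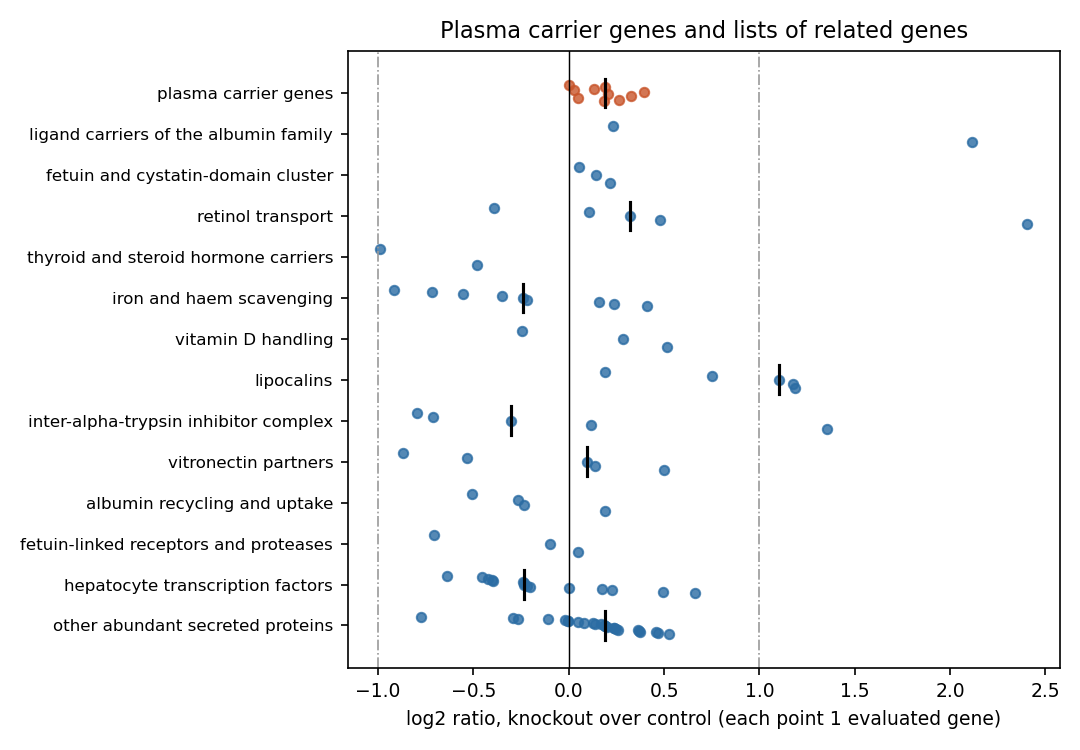
log2 ratio of knockout over control of each evaluated gene (1 point a gene) for the 10 carriers in the top row and for 13 lists of related genes with the carriers left out; black bars mark medians of lists with 5 or more genes and the grey lines 2-fold. Carriers span 0.00 to 0.40, while Afp (2.12) lies far to the right and Serpina7 (-0.99) far to the left.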

How the data were processed

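Liver RNA was sequenced in 1 control and 1 knockout library. The authors deposited 1 table with a whole-number read count per gene and an FPKM value for both libraries. Bowtie2 2.4.2 and build mm10 are named per the submitters' processing notes. Not given in the sources used here were the counting program, annotation, strand setting and handling of multiply matching reads. All 21936 deposited FPKM values per library were recomputed from count, gene length and column total within a relative tolerance of 1e-06. Columns were assigned by the endings WT and KO of their names.

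Counts were scaled with TMM factors (1.004 control, 0.996 knockout) from edgeR 4.0.16 in R 4.3.3, and DESeq2 1.42.0 gave other size factors. Ratios have exact Clopper-Pearson 95% intervals from the split of reads, which cover counting error only. The approximate intervals of quotients assume Poisson counts on a log scale. A median's interval is the median of the genes' bounds. Thresholds were set on the log2 ratio with 0.5 added. Python 3.11.15, numpy 2.4.6, pandas 2.3.3 and scipy 1.17.1 were used. The calculation was tested on simulated data. Gene structure came from GENCODE M21. Named genes were the members, up to 3 most different and the least different genes of each list, those past 2-fold, genomic neighbours, Hnrnpk, and the 3 abundant genes nearest to the members' median. Other list members appear where a group is described, and such names were chosen after their values were seen. The members and lists were chosen with earlier results of these data known. Some genes of the lists are not reported here. Alternatives covered scaling, unit, pseudocount, expression minimum, threshold, gene length and GC content.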

Additional observations from a re-analysis of the deposited data

How the results depend on the processing

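With 1 library per genotype no library could be left out, and no paired analysis was possible because each group has a single sample. No carrier passed 2-fold under any alternative, and none passed a threshold of 50% higher, which 11.4% of evaluated genes passed in either direction. The count of carriers past the 25% threshold, 2 with TMM scaling, was 1 with DESeq2 size factors, plain library totals, totals without mitochondrial genes, FPKM or TPM with 1 added and the length correction, and 0 with length and GC correction, with Hpx close to the threshold in the main scaling. The carriers' median log2 ratio was 0.13 with TPM, 0.038 with the length correction and 0.040 with length and GC correction. It stayed within its counting interval under the other alternatives. The ratio of their summed reads was 1.035 with DESeq2 size factors, 1.033 with plain totals, 1.025 without mitochondrial genes, 1.037 with totals without the members and 1.126 without Alb. Their share of reads was 11.7% and 12.0% when mitochondrial genes were left out, and 3.50% and 3.91% without Alb. The length correction also moved the medians of iron and haem genes to -0.15, of transcription factors to -0.12 and of other secreted proteins to 0.13. Of 90 values of single carriers under alternatives, 47 stayed within the counting interval and 43 did not, and neither Ahsg nor Hpx changed direction. Alb, Ambp and Trf were each below 0 with TPM, with the length correction, and with length and GC correction. Under these alternatives the log2 ratio of Trf was -0.03, -0.0007 and -0.02, and that of Ambp -0.009, -0.09 and -0.11. The cause of these shifts was not tested. Reads of genes overlapping a carrier could not be added, because no other gene of the table overlaps one. With no expression minimum, or one of FPKM 5 and 100 counts, the counts of carriers did not change. Depth does not limit the carriers' values, whereas the spread between mice was not measured.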
